A study of Mus musculus with 12 samples.

Results

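The DNA replication and nucleotide supply genes are a list of 42 named genes whose products license, start, copy and join DNA and make its building blocks, together with Uhrf1. Members were chosen by name, all 42 were found by symbol among the 24187 mouse genes counted, and all 42 passed the filter on low counts that 22581 genes passed. The liver transcriptome of 12 mice was measured by bulk RNA sequencing, in which the transcripts of all cell types of the tissue are counted together. Control mice (n = 3) were not injured and received no cells. The methods also name a saline injection and fasting, without saying whether these controls had them. The other mice received acetaminophen (APAP), a painkiller that destroys hepatocytes in overdose, followed by PBS as vehicle (n = 5) or by hAAMs (n = 4), which are alternatively activated macrophages grown from human blood CD14+ monocytes with CSF1, then polarized with IL-4 and IL-13 and cryopreserved. The sample labels give 350 mg/kg APAP, whereas the severe model in which these livers are shown used 500 mg/kg, and the methods list both doses. In that model vehicle or 1000000 hAAMs entered the circulation 16 h after APAP, and livers were collected at 32 h or 36 h depending on the section read, with neither time given for the sequenced livers alone. The methods give an age of 10 to 12 weeks and either sex, and name the strain as C57BL/6 J in one section and C57BL6/JOlaHsd in another. Reads were aligned to the mouse genome alone, so transcripts of the injected human cells were not counted separately.

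DNA replication starts when the origin recognition complex, Cdc6 and Cdt1 load rings of Mcm2 to Mcm7 onto origins, a step called licensing that geminin (Gmnn) restrains. Cdc45 and the GINS proteins then turn the loaded ring into the working helicase. Primase and DNA polymerase alpha lay primers, and DNA polymerases delta and epsilon extend them on the Pcna clamp. Fen1 and Lig1 finish the lagging strand, while ribonucleotide reductase, thymidylate synthase and thymidine kinase supply deoxynucleotides. Adult hepatocytes are mostly quiescent, re-enter the cell cycle after tissue loss, and many of these genes are known targets of the E2F transcription factors.

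Sequencing depth was 60870399 to 74056505 counts in the control, 50859599 to 61826952 in the vehicle and 47391650 to 55379420 in the hAAM livers, and Alb, the main hepatocyte transcript, lay between 35702 and 70201 CPM (counts per 1000000, scaled with edgeR's TMM factors) in the 12 livers. Vehicle mouse 3 and hAAM mouse 4 differed by 1.19 times counting noise (median over 15804 genes), whereas the other 35 pairs of APAP-injured livers differed by 2.37 to 4.98 times. Over the 42 members the ratio of hAAM mouse 4 to vehicle mouse 3 ran from 0.818 to 1.35 with a median of 1.01, and 38 members were within 20%. Their labels differ, so both were kept in their own groups, and the counts of changed members are also given without both. Whether these libraries came from the same liver, or whether a label was exchanged, was not tested. In either case the groups would hold fewer independent mice of their treatment than the n given, which bears most on the comparison of hAAM with vehicle mice.

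Where the promoter letters known for E2F binding lie was read from RefSeq (GRCm38.p6), which held a window from 250 bases before to 50 bases after the start for 34 of the 42 members. The letters TTTGGCGC, TTTCCCGC, TTTGCCGC or TTTCGCGC, on either strand and with overlapping matches counted, stood in 15 of these 34 genes (44.1%), against 704 of all 27025 genes with a window (2.6%). CCAAT, another promoter motif, stood on either strand in 22 of the 34 (64.7%), against 41.1% of all genes. The 200 bases before the start are printed for 5 members with E2F-type letters, which are in capitals, and for Pcna, the most abundant member per length in control livers, which has none in its window. They lie at chr1:128359706-128359905 on the minus strand (Mcm6), chr8:75109309-75109508 on the plus strand (Mcm5), chr4:108579254-108579453 on the plus strand (Orc1), chr11:98907951-98908150 on the plus strand (Cdc6), chr17:56304113-56304312 on the plus strand (Uhrf1, the downstream of its RefSeq starts) and chr2:132253181-132253380 on the minus strand (Pcna), each written 5′ to 3′ toward the gene.
Mcm6: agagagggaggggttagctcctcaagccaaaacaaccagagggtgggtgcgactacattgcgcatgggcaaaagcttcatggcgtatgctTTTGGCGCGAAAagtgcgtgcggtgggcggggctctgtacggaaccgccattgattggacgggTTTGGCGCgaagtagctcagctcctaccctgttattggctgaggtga
Mcm5: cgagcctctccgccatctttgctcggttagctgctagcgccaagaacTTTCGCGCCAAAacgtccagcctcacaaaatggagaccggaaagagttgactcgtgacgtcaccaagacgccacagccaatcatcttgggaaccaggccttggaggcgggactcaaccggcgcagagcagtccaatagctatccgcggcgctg
Orc1: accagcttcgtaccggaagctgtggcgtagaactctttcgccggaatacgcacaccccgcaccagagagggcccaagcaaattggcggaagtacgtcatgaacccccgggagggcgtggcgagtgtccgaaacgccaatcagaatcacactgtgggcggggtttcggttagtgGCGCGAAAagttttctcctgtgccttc
Cdc6: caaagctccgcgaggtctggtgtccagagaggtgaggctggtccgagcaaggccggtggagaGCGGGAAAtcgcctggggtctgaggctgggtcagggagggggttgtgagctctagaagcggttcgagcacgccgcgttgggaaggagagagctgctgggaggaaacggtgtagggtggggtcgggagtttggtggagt
Uhrf1: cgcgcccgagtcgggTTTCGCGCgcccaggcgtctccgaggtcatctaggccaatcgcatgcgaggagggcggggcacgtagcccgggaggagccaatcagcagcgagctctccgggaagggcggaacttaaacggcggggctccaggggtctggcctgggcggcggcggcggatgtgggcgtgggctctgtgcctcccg
Pcna: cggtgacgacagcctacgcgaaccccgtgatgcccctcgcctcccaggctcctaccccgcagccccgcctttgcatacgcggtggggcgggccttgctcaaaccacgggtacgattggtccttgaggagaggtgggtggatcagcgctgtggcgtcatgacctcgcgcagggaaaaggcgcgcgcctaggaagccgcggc
In Mcm6 an overlapping pair of matches begins 110 and 106 bases before the start and a single match 47 bases before it. Mcm5 has an overlapping pair 153 and 149 bases before its start. In Orc1, Cdc6 and Uhrf1 a single match begins 27, 138 and 185 bases before the start. A match describes letters only and is not evidence of binding. Of the 15 members with the letters, 11 rose in vehicle mice (median log2 fold change 1.66), of the 19 without them 11 rose (median 0.76), and of the 8 without a window 5 rose (median 0.96), a contrast given here as a description with no test.

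Compared with control livers, the replication genes were higher as a group in both APAP groups. In vehicle mice 27 of the 42 members rose and 0 fell, with a median log2 fold change of 0.85 (1.80-fold), where calls are an adjusted p under 0.05 in edgeR's quasi-likelihood test. Over all genes tested 15% rose and 14.8% fell in this comparison, with a median log2 fold change of 0.01. In hAAM mice 23 of the 42 rose and 0 fell, with a median of 0.86 (1.82-fold), against 10.7% higher, 9.96% lower and a median of 0.02 over all genes. No member had a negative fold change in either comparison in edgeR, so none was lower at an unadjusted p under 0.05 either, and DESeq2 called 32 and 29 members higher and 0 lower. The common direction was not kept by every member in every setting. Pold2 in hAAM mice, whose fold change lay near 0, was negative in 9 of the 22 alternative settings, by DESeq2 (-0.0026) among them, and Mcm10 in vehicle mice was negative in 5, among them those without control mouse 1 or 2 or vehicle mouse 3. Of the members, 22 rose in both groups, Mcm4, Prim1, Pold1, Pold3 and Tk1 were called in vehicle mice alone, Pola1 was called in hAAM mice alone, and 14 were called in neither. A call in a single group does not show that the groups differ, which the comparison of the treatments tests. Both comparisons share the same 3 control livers.

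**Figure D1:**
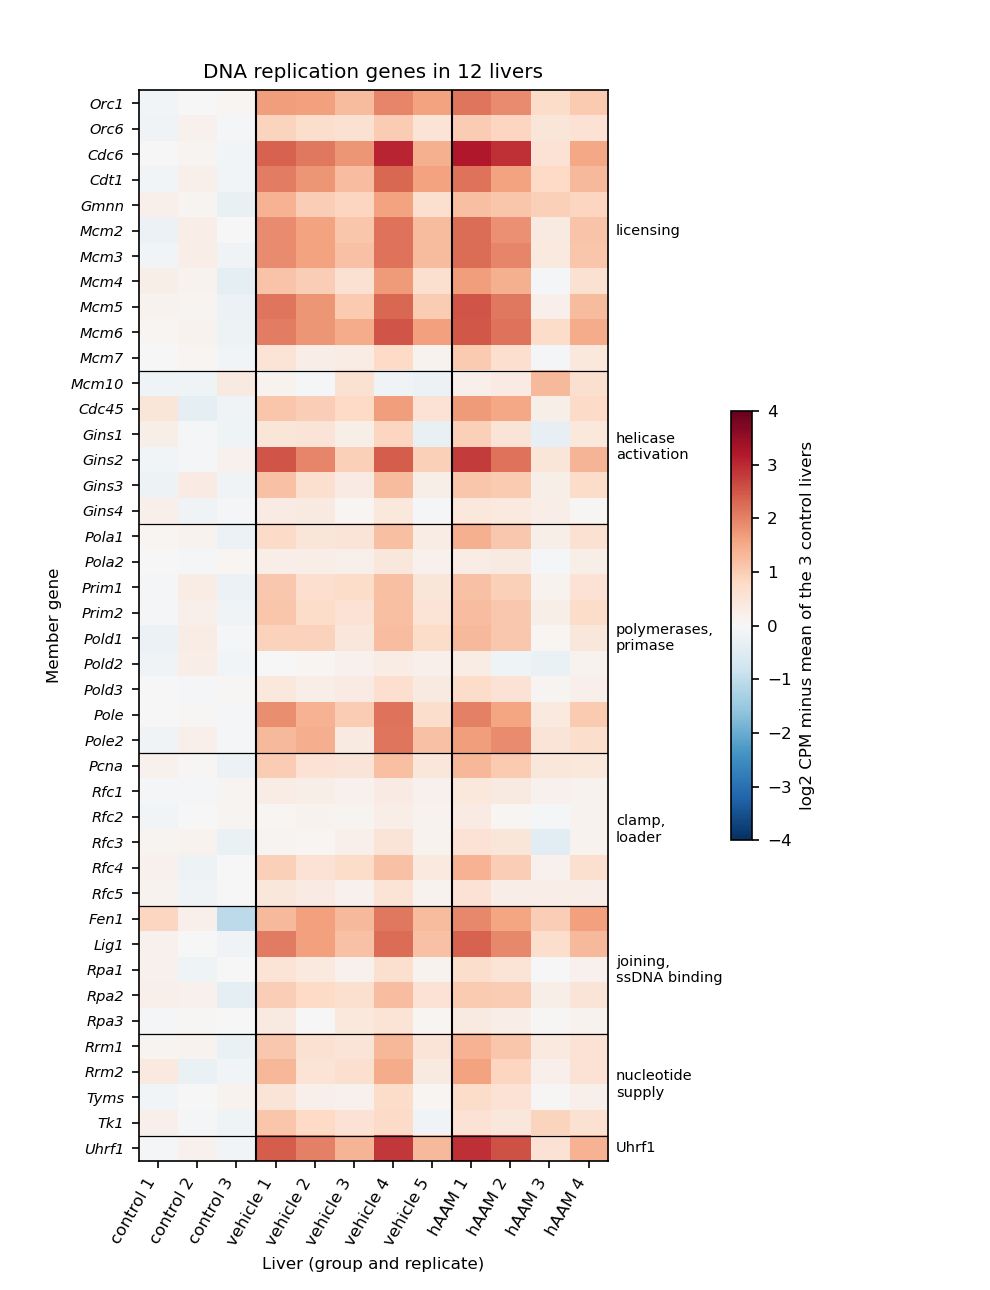
Each cell is a member's log2 CPM (prior count 2) in a liver minus its mean over the 3 control livers, for 42 genes in rows by role and 12 livers in columns. Red rows run through both APAP groups, palest in hAAM mouse 3, where 27 of the 42 members lay above every control liver, against 41 in vehicle mouse 4 and hAAM mouse 1.

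The groups did not overlap for many members. Every vehicle liver lay above every control liver for 29 of the 42 members (17.5% of all genes tested), and every hAAM liver did so for 25 (14.3% of all genes), with 22 members in both sets. The number of calls depended on single livers. Leaving out control mouse 2, control mouse 3 or vehicle mouse 4 lowered the 27 calls in vehicle mice to 16, 12 and 17. Leaving out control mouse 1, 2 or 3 lowered the 23 calls in hAAM mice to 9, 11 and 7, and leaving out hAAM mouse 1 or 2 lowered them to 10 in each case, while the median log2 fold change stayed between 0.68 and 1.00. Without both similar libraries, vehicle mouse 3 and hAAM mouse 4, 25 members rose in vehicle mice and 22 in hAAM mice.

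**Figure D2:**
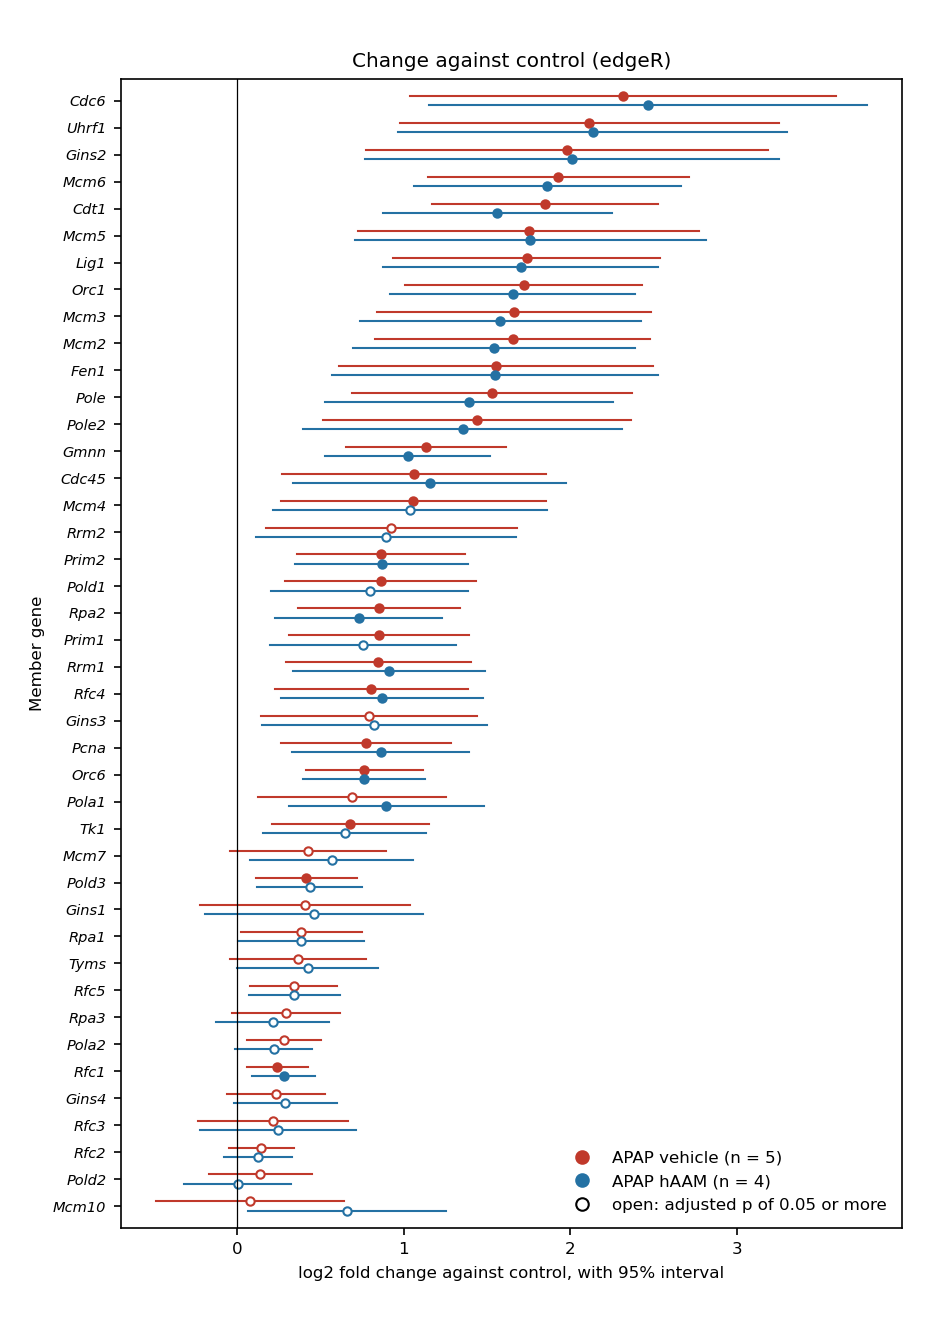
Points are log2 fold changes against control (edgeR) for the 42 members, red for vehicle (n = 5) and blue for hAAM mice (n = 4), with 95% intervals as lines and open points where the adjusted p was 0.05 or more. Cdc6 is highest at 2.32 and 2.47, Mcm10 and Pold2 are at the bottom, and the red and blue intervals of each gene overlap.

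The licensing genes had the highest median change among the classes with more than 1 gene. Of 11 members, 10 rose in vehicle mice (median log2 fold change 1.66) and 9 in hAAM mice (median 1.56), with the exceptions of Mcm7 in both (0.43 and 0.57) and Mcm4 in hAAM mice (1.04, adjusted p = 0.0719). Cdt1 (ENSMUSG00000006585, chr8:122568015-122573554, GRCm38), the loader that brings the Mcm ring to the origin, measured 1.96, 2.45 and 1.96 CPM in control mice 1 to 3, 8.86, 7.21, 5.07, 10.6 and 6.51 CPM in vehicle mice 1 to 5, and 9.69, 6.48, 3.72 and 5.26 CPM in hAAM mice 1 to 4. All 9 APAP-injured livers lay above all 3 control livers. Its log2 fold change was 1.85 (SE 0.311, adjusted p = 0.00157) in vehicle and 1.56 (SE 0.318, adjusted p = 0.00671) in hAAM mice. Mcm6 (ENSMUSG00000026355, chr1:128331590-128359664), a subunit of the ring, measured 6.75, 7.09 and 5.53 CPM in control mice 1 to 3, 26.4, 21.8, 17.9, 36.7 and 20.1 CPM in vehicle mice 1 to 5, and 36, 29.2, 10.8 and 18 CPM in hAAM mice 1 to 4. Again no injured liver reached down to the control range, although hAAM mouse 3 came nearest at 10.8 CPM. The log2 fold change of Mcm6 was 1.93 (SE 0.361, adjusted p = 0.00268) and 1.86 (SE 0.37, adjusted p = 0.00601). The calls of Cdt1 and Mcm6 were kept in all 22 alternative settings tried for both groups. Cdc6, the ATPase that works with Cdt1, had the largest fold change of all members (2.32 and 2.47), the other minichromosome subunits Mcm2, Mcm3 and Mcm5 rose by 1.54 to 1.76 in both groups, Orc1, the largest origin recognition subunit, rose by 1.72 and 1.65, and Orc6 by 0.76 in both. Gmnn, the inhibitor of Cdt1, rose together with its target by 1.13 and 1.02.

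The helicase activators were divided. Of 6 members, Gins2 and Cdc45 rose in both groups and Mcm10, Gins1, Gins3 and Gins4 did not pass the test, with a median log2 fold change of 0.60 in vehicle and 0.74 in hAAM mice. Gins2 (ENSMUSG00000031821, chr8:120578633-120589304), a GINS subunit, measured 0.457, 0.472 and 0.553 CPM in control mice 1 to 3, 2.96, 2.02, 0.987, 2.79 and 0.991 CPM in vehicle mice 1 to 5, and 3.65, 2.33, 0.697 and 1.31 CPM in hAAM mice 1 to 4. Both injured groups lay above the control range, with a wide spread among the injured livers. On the log2 scale it was higher by 1.98 (SE 0.556, adjusted p = 0.0193) and 2.01 (SE 0.572, adjusted p = 0.0281). Of its exon bases, 67.3% are shared with Gse1 on the opposite strand, so reads of these genes may not have been told apart. Cdc45 (ENSMUSG00000000028, chr16:18780447-18811987), which joins the Mcm ring to GINS, measured 1.66, 0.897 and 1.07 CPM in control mice 1 to 3, 2.58, 2.35, 2.07, 3.8 and 1.76 CPM in vehicle mice 1 to 5, and 3.86, 3.48, 1.37 and 2.02 CPM in hAAM mice 1 to 4. Vehicle mice lay above all controls, whereas hAAM mouse 3 fell below control mouse 1. For Cdc45 the log2 fold change was 1.06 (SE 0.364, adjusted p = 0.0447) and 1.16 (SE 0.378, adjusted p = 0.0482). Both genes were close to the threshold: Gins2 lost its vehicle call without control mouse 1, 2 or 3 (adjusted p up to 0.0634) and its hAAM call without any of these or hAAM mouse 1 or 2 (up to 0.081), and Cdc45 lost its calls in 7 and 10 of 22 settings, among them those without control mouse 2 or 3 or without both similar libraries (up to 0.15).

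Of the 9 polymerase and primase genes, 6 rose in vehicle mice (median log2 fold change 0.85) and 4 in hAAM mice (median 0.79). Pole (ENSMUSG00000007080, chr5:110286306-110337474), the catalytic subunit of the leading strand polymerase epsilon, measured 3.3, 3.37 and 3.1 CPM in control mice 1 to 3, 11.9, 8.53, 6.64, 14.7 and 5.27 CPM in vehicle mice 1 to 5, and 13.4, 9.81, 4.32 and 6.7 CPM in hAAM mice 1 to 4. The control values were tight and every injured liver exceeded them. Relative to control, the log2 fold change was 1.53 (SE 0.387, adjusted p = 0.0119) and 1.39 (SE 0.397, adjusted p = 0.0286). Prim2 (ENSMUSG00000026134, chr1:33453810-33669795), the large primase subunit, measured 2.76, 3.3 and 2.65 CPM in control mice 1 to 3, 6.26, 4.82, 4.36, 6.76 and 4.22 CPM in vehicle mice 1 to 5, and 6.85, 6.11, 3.43 and 4.82 CPM in hAAM mice 1 to 4. The groups did not overlap, with hAAM mouse 3 just above control mouse 2. For Prim2 the log2 fold change was 0.86 (SE 0.231, adjusted p = 0.0157) and 0.87 (SE 0.24, adjusted p = 0.0256). Without control mouse 1 or 3 the Prim2 calls were lost in both groups. In hAAM mice the Prim2 call was also lost without hAAM mouse 1 or 2 and with only the compared groups in the fit (adjusted p up to 0.0889). The Pole call in hAAM mice was lost without control mouse 1, 2 or 3 or hAAM mouse 1 or 2 (up to 0.0891), whereas that in vehicle mice was kept in all 22 settings. Pole2, the second subunit of polymerase epsilon, rose by 1.44 and 1.35. Among the subunits of polymerase delta, the catalytic Pold1 and the accessory Pold3 passed the test in vehicle mice (0.86 and 0.41) and lay near the threshold in hAAM mice (0.79 and 0.43, adjusted p = 0.0581 and 0.0534), with differences between the treatments of -0.07 and 0.02 (adjusted p = 0.996 and 1.00), and Pold2 did not pass in either.

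Pold2 (ENSMUSG00000020471, chr11:5872180-5878292), the accessory subunit that bridges the polymerase delta complex, is described in full because it was among the 3 members with the smallest p between the treatments. It measured 7.7, 10.1 and 7.84 CPM in control mice 1 to 3, 8.41, 9, 9.52, 10.4 and 9.72 CPM in vehicle mice 1 to 5, and 10.4, 7.57, 6.99 and 9.26 CPM in hAAM mice 1 to 4. The 3 groups overlapped throughout. Its log2 fold change was 0.14 in vehicle mice (adjusted p = 0.491) and 0.00 in hAAM mice (adjusted p = 0.995), below every other member but Mcm10 in the first and below all in the second.

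The clamp and its loader changed less. Of 6 members, Pcna, Rfc1 and Rfc4 rose in both groups, Rfc2, Rfc3 and Rfc5 in neither, and the median log2 fold change was 0.29 in vehicle and 0.31 in hAAM mice. Pcna (ENSMUSG00000027342, chr2:132249162-132253314), the ring that holds polymerases on DNA, measured 18.7, 17 and 14.1 CPM in control mice 1 to 3, 33.2, 24.8, 23.5, 37.9 and 22.4 CPM in vehicle mice 1 to 5, and 41.4, 34.3, 22.6 and 22.2 CPM in hAAM mice 1 to 4. Every injured liver was above every control, hAAM mouse 4 by the least. Against control it was higher by a log2 fold change of 0.77 (SE 0.236, adjusted p = 0.0278) and 0.86 (SE 0.245, adjusted p = 0.0285). Rfc4 (ENSMUSG00000022881, chr16:23113943-23127737), a loader subunit, measured 1.43, 1.1 and 1.28 CPM in control mice 1 to 3, 2.48, 1.91, 2.13, 2.9 and 1.67 CPM in vehicle mice 1 to 5, and 3.35, 2.54, 1.41 and 1.98 CPM in hAAM mice 1 to 4. In hAAM mouse 3 its level lay just under control mouse 1, and the other injured livers were above. Against control, Rfc4 had a log2 fold change of 0.80 (SE 0.267, adjusted p = 0.0394) and 0.87 (SE 0.278, adjusted p = 0.0444). Rfc1, the large loader subunit, rose by only 0.24 and 0.28. The Pcna call in vehicle mice was lost without control mouse 2 or 3 or vehicle mouse 1 or 4 (adjusted p up to 0.108), that in hAAM mice without control mouse 1, 2 or 3 or hAAM mouse 1 or 2 (up to 0.106), and Rfc4 lost its calls in 8 and 11 of 22 settings, among them those without control mouse 1, 2 or 3 or without both similar libraries (up to 0.129).

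**Figure D3:**
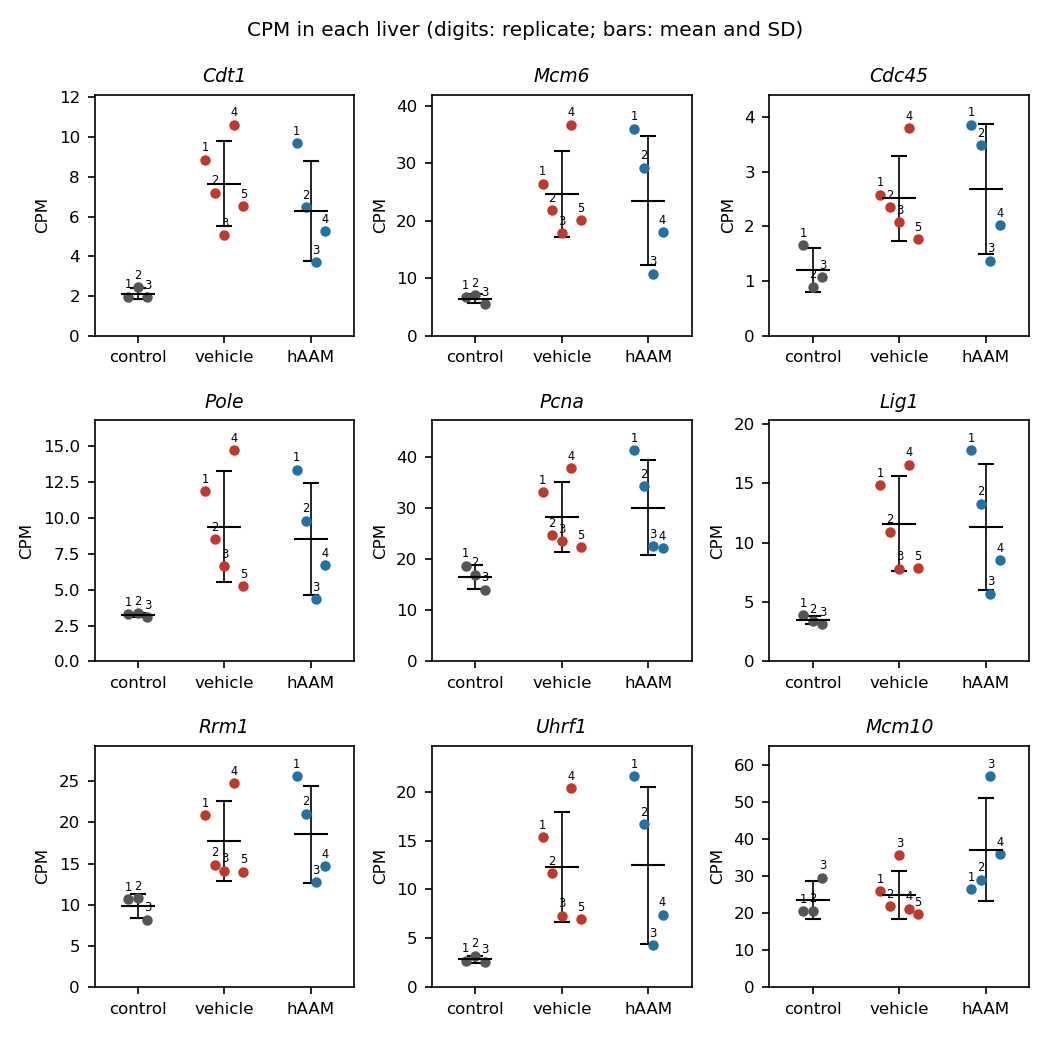
CPM per liver on linear axes from 0 for 9 members, with control in grey, vehicle in red and hAAM mice in blue, digits giving the replicate and bars the mean and SD. Both injured groups have higher means than control in all 9 panels, by the least for Mcm10 in vehicle mice, with means of 23.5, 24.8 and 37.1 CPM.

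Among the genes that join Okazaki fragments and bind single strands, Fen1, Lig1 and Rpa2 rose in both groups, and Rpa1 and Rpa3 did not pass the test, with a median log2 fold change of 0.85 in vehicle and 0.73 in hAAM mice. Lig1 (ENSMUSG00000056394, chr7:13277283-13311433), the replicative DNA ligase, measured 3.89, 3.4 and 3.16 CPM in control mice 1 to 3, 14.9, 10.9, 7.8, 16.6 and 7.87 CPM in vehicle mice 1 to 5, and 17.8, 13.3, 5.71 and 8.51 CPM in hAAM mice 1 to 4. All injured livers were above all controls. Its log2 fold change was 1.74 (SE 0.369, adjusted p = 0.00509) and 1.70 (SE 0.379, adjusted p = 0.0102), and both calls were kept in all 22 settings. Rpa2 (ENSMUSG00000028884, chr4:132768332-132778752), a subunit of the single-strand binding complex, measured 4.06, 3.96 and 2.73 CPM in control mice 1 to 3, 6.97, 6.14, 5.56, 8.37 and 5.28 CPM in vehicle mice 1 to 5, and 7.26, 7.24, 4.16 and 5.1 CPM in hAAM mice 1 to 4. Its lowest injured liver, hAAM mouse 3, was a little above control mouse 1. The log2 fold change of Rpa2 was 0.85 (SE 0.223, adjusted p = 0.0142) and 0.73 (SE 0.231, adjusted p = 0.0429). Without control mouse 3 the vehicle call of Rpa2 was lost (adjusted p = 0.0662), and its hAAM call was lost in 8 settings, among them those without control mouse 1, 2 or 3, vehicle mouse 1 or 2, or hAAM mouse 1 or 2 (up to 0.157). Fen1, the flap nuclease, had few reads, with 13, 9 and 2 counts in control livers and 14 to 43 in injured livers. It rose by 1.55 in both groups, and 78.8% of its exon bases are shared with the antisense gene Gm10143, so these reads cannot be assigned to Fen1 with certainty.

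The nucleotide supply genes showed a modest change. Of 4 members, Rrm1 and Tk1 rose in vehicle mice and Rrm1 alone in hAAM mice, with a median log2 fold change of 0.76 and 0.77. Rrm1 (ENSMUSG00000030978, chr7:102441695-102469771), the large subunit of ribonucleotide reductase, measured 10.6, 10.8 and 8.18 CPM in control mice 1 to 3, 20.9, 14.9, 14.1, 24.8 and 14 CPM in vehicle mice 1 to 5, and 25.7, 21.1, 12.8 and 14.7 CPM in hAAM mice 1 to 4. Injured and control livers did not overlap. This corresponded to a log2 fold change of 0.85 (SE 0.255, adjusted p = 0.0265) and 0.91 (SE 0.265, adjusted p = 0.031). Tk1 (ENSMUSG00000025574, chr11:117815526-117826092), the thymidine kinase of the salvage route, measured 20.8, 17.6 and 16.1 CPM in control mice 1 to 3, 39.2, 31.6, 27.3, 30.9 and 16.4 CPM in vehicle mice 1 to 5, and 27.2, 25, 33.6 and 27.9 CPM in hAAM mice 1 to 4. Vehicle mouse 5 lay within the control range, while all 4 hAAM mice lay above it. Against control, Tk1 had a log2 fold change of 0.68 (SE 0.217, adjusted p = 0.0339) and 0.64 (SE 0.225, adjusted p = 0.061). Unlike most members, Tk1 was higher in hAAM mouse 3 than in the other hAAM mice. The Rrm1 calls were lost without control mouse 1, 2 or 3, and further without vehicle mouse 1 or 4 in vehicle mice (adjusted p up to 0.104) and without hAAM mouse 1 or 2 in hAAM mice (up to 0.113). The Tk1 call in vehicle mice was lost in 7 of 22 settings, those without control mouse 2 or 3 or vehicle mouse 1, 2 or 4, without both similar libraries, and with only the compared groups in the fit (up to 0.12). In hAAM mice Tk1 passed in 6 settings, by DESeq2, with library size alone, with only the compared groups, with the replicate block, and without vehicle mouse 1 or 5 (down to 0.00905). Rrm2, the small reductase subunit that limits the enzyme in cycling cells, had log2 fold changes of 0.93 (adjusted p = 0.0625) and 0.89 (adjusted p = 0.0983), and Tyms, the thymidylate synthase, of 0.36 and 0.42, none of which passed.

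Uhrf1 (ENSMUSG00000001228, chr17:56303321-56323486), which reads half-methylated DNA behind the fork and recruits the maintenance methyltransferase Dnmt1, measured 2.69, 3.22 and 2.61 CPM in control mice 1 to 3, 15.3, 11.6, 7.3, 20.4 and 6.97 CPM in vehicle mice 1 to 5, and 21.6, 16.7, 4.26 and 7.41 CPM in hAAM mice 1 to 4. Every injured liver was above every control, from 4.26 CPM in hAAM mouse 3 to 21.6 CPM in hAAM mouse 1. The log2 fold change of Uhrf1 was 2.12 (SE 0.524, adjusted p = 0.0108) and 2.13 (SE 0.538, adjusted p = 0.0171). Its hAAM call was lost without control mouse 1 or 3 (adjusted p up to 0.0641).

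Whether hAAMs changed these genes in injured livers was asked by the comparison of the treatments. edgeR called 0 of the 42 members higher and 0 lower (0% of all genes tested in either direction), DESeq2 called 0 members, and 1 member, Mcm10, had an unadjusted p under 0.05 in edgeR, as did 5.02% of all genes tested, so this count is no more than the background. The hAAM mice were above the vehicle mice in 21 of 42 members, with a median log2 fold change of 0.00. This balance rested on single livers, since 2 members were above without hAAM mouse 1 (median -0.16) and 37 without hAAM mouse 3 (median 0.15). Without both similar libraries 19 members were above. The intervals bound the difference: for 39 of 42 members the 95% interval lay within a 2-fold change in either direction, with upper bounds of 1.15 for Cdc6, 1.09 for Mcm10 and 1.00 for Gins2 on the log2 scale. Cdt1, the member with the most negative difference, had a log2 fold change of -0.28 (SE 0.261, adjusted p = 0.977), and Pold2 one of -0.14 (SE 0.13, adjusted p = 0.98).

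**Figure D4:**
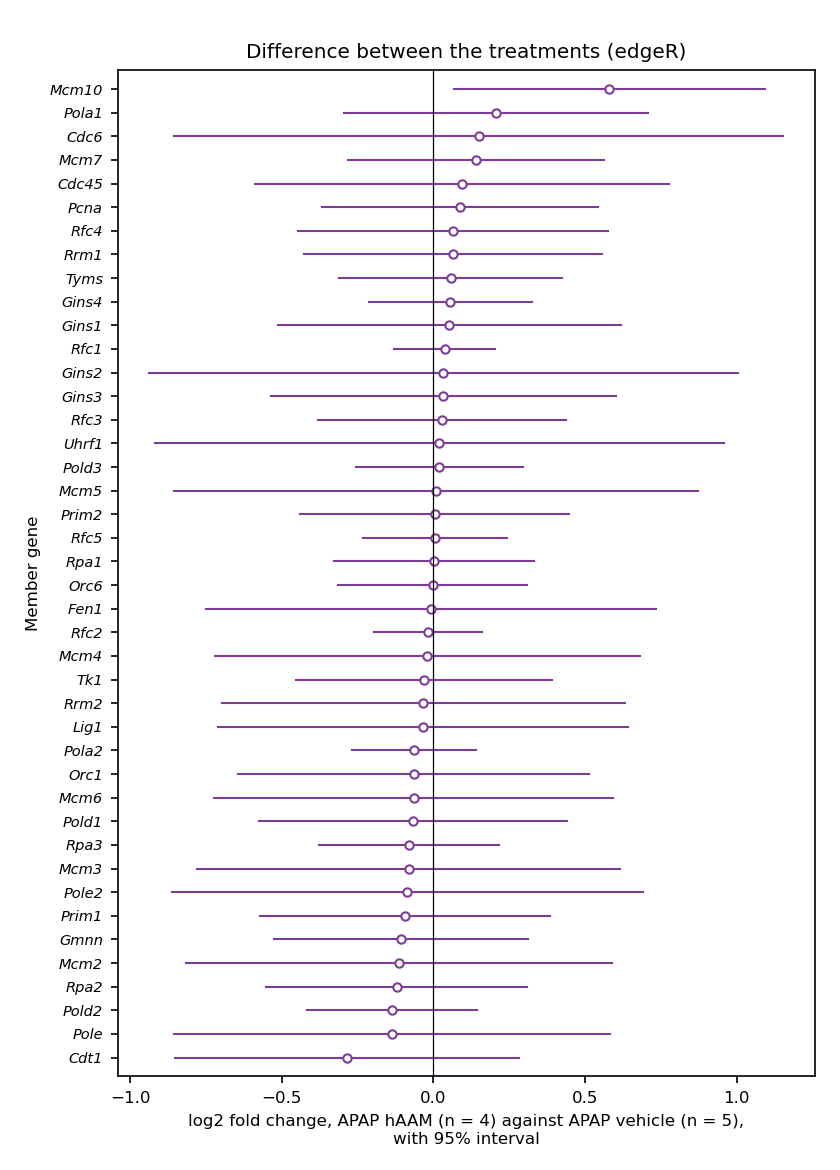
Open points are log2 fold changes of hAAM (n = 4) against vehicle mice (n = 5) by edgeR for the 42 members, with 95% intervals as lines. The intervals of all members except Mcm10, at 0.58, include 0.

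Mcm10 (ENSMUSG00000026669, chr2:4989714-5012791), which helps the new helicase begin to unwind, did not follow the other members. It measured 20.4, 20.6 and 29.5 CPM in control mice 1 to 3, 25.8, 21.8, 35.6, 21.2 and 19.6 CPM in vehicle mice 1 to 5, and 26.4, 29, 57 and 35.8 CPM in hAAM mice 1 to 4. The groups overlapped, and the highest value came from hAAM mouse 3, the liver with the lowest level among the 9 injured livers for 33 of the 42 members. Between the treatments its log2 fold change was 0.58 (SE 0.236, adjusted p = 0.966), with an unadjusted p of 0.0297. Without hAAM mouse 3 the difference was 0.30, and without vehicle mouse 2, 4 or 5 or hAAM mouse 3 the unadjusted p no longer passed 0.05. Against control Mcm10 had log2 fold changes of 0.08 (adjusted p = 0.85) in vehicle and 0.66 (adjusted p = 0.108) in hAAM mice. The hAAM value passed in 2 of the 22 alternative settings, scaling by library size alone and the replicate block (adjusted p down to 0.0112).

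Injured livers of the same treatment differed among themselves. The mean over the 42 members of the log2 CPM above the control mean was 1.10, 0.87, 0.66, 1.35 and 0.58 in vehicle mice 1 to 5 (0.91 ± 0.317, SD, n = 5) and 1.37, 1.12, 0.32 and 0.69 in hAAM mice 1 to 4 (0.87 ± 0.465, SD, n = 4), while control mice lay between -0.11 and 0.06. Among the 9 injured livers hAAM mouse 1 was the highest for 27 members and vehicle mouse 4 for 13. At the other end hAAM mouse 3 was the lowest for 33 and vehicle mouse 5 for 5.

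Some markers of other cells moved with this order and others did not. The summed CPM of 4 monocyte genes was 47.2 to 60.7 in control, 101 to 227 in vehicle and 98.5 to 272 in hAAM mice, and hAAM mouse 1, hAAM mouse 2, vehicle mouse 4 and vehicle mouse 1, at 272, 241, 227 and 194, were also the 4 livers with the highest member means. Lyz2 made up most of this sum. Lyz2 and Ccr2 were highest in these 4 livers, with Lyz2 at 137 to 204 CPM, against 70.9 to 103 in the other injured livers. The remaining monocyte genes broke the order in vehicle mouse 1. Ly6c2 was lowest there among the injured livers, and Chil3, at 34.7 CPM, was below the 35.8 CPM of vehicle mouse 5. The sum of 6 macrophage genes was 177 to 221, 227 to 354 and 228 to 296 CPM and did not follow the order, since hAAM mouse 3, with the lowest member mean of the injured livers, had 296 CPM, as much as hAAM mouse 1. The sum of 5 endothelial genes was 287 to 315, 318 to 403 and 282 to 400 CPM and that of 4 neutrophil genes 6.66 to 26.2, 9.80 to 39.4 and 10.7 to 35.8 CPM, with vehicle mouse 5, the second lowest in member mean, at 399 and 39.4 CPM. The sum of 5 stellate cell genes was 276 to 362, 375 to 578 and 370 to 701 CPM, and the same 4 livers were its highest at 563 to 701 CPM, against 370 to 409 in the other injured livers. Most of its spread came from Col1a1, a collagen gene (15.5 to 50.2, 97.1 to 312 and 82.8 to 388 CPM), while Dcn, Lrat and Reln did not pass the test, and Pdgfrb, a receptor of stellate cells, was also highest in these 4 livers (53.0 to 64.3 CPM, against 28.5 to 45.8 in the other injured livers). Of the sum of 5 cholangiocyte genes, 40.3 to 65.5, 64.1 to 301 and 63.8 to 231 CPM, most of the spread came from Spp1, a secreted glycoprotein that other cells also make (18.1 to 34.1, 31.4 to 253 and 31.2 to 195 CPM), while Epcam lay between 0.551 and 1.01 CPM in all 12 livers. The sum of 6 hepatocyte genes was 62777 to 92652, 66793 to 98165 and 69910 to 100760 CPM and ran against the order, with 66793 to 74260 CPM in the same 4 livers, 81020 to 100760 in the other injured livers and the highest value in hAAM mouse 3. Alb made up most of this sum. Of the 6 genes, only Alb and Apob were lower in all of these 4 livers than in every other injured liver. Ttr and Tat were lowest among the injured livers in vehicle mouse 5, at 1901 and 448 CPM. Vehicle mouse 5 stood apart in the sum of 7 erythroid genes, with 1082 CPM against 113 to 400 in the other livers. The globin genes Hba-a1 and Hbb-bt made up most of it at 841 and 206 CPM, while Alas2, at 25.9 CPM, lay within the range of the other vehicle mice. Slc4a1 also stood apart, with 6.43 CPM in vehicle mouse 5 against 0.0953 to 1.82 CPM in the other livers. In vehicle and hAAM mice, 3 and 3 of 4 monocyte markers rose, 2 and 2 of 6 macrophage markers (Cd68 and Marco), 2 and 2 of 5 stellate markers (Col1a1 and Pdgfrb), 2 and 1 of 5 endothelial markers and 2 and 0 of 6 erythroid markers tested. Alas2 fell in both groups, Hnf4a and Cd4 fell in vehicle mice, and no neutrophil, B cell or cholangiocyte marker passed. Every marker summed had at least 1 count in every liver. The part of these cells in the member levels was not tested, and in bulk tissue fewer cells of a type and less RNA per cell cannot be told apart.

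Members with low control levels tended to show the larger changes. On the scale of CPM per kilobase of exon, control levels ran from 0.059 for Fen1 to 6.92 for Pcna. Of the 14 lowest members 12 rose in vehicle and 12 in hAAM mice, with a median log2 fold change of 1.54 and 1.47. Of the middle 14, 9 and 8 rose (medians 0.85 and 0.83), and of the highest 14, 6 and 3 (medians 0.36 and 0.41). Across the 42 genes Spearman's rho between control level and log2 fold change was -0.62 in vehicle and -0.61 in hAAM mice. This is a description across genes, which are not independent replicates, and both axes use the same control libraries.

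**Figure D5:**
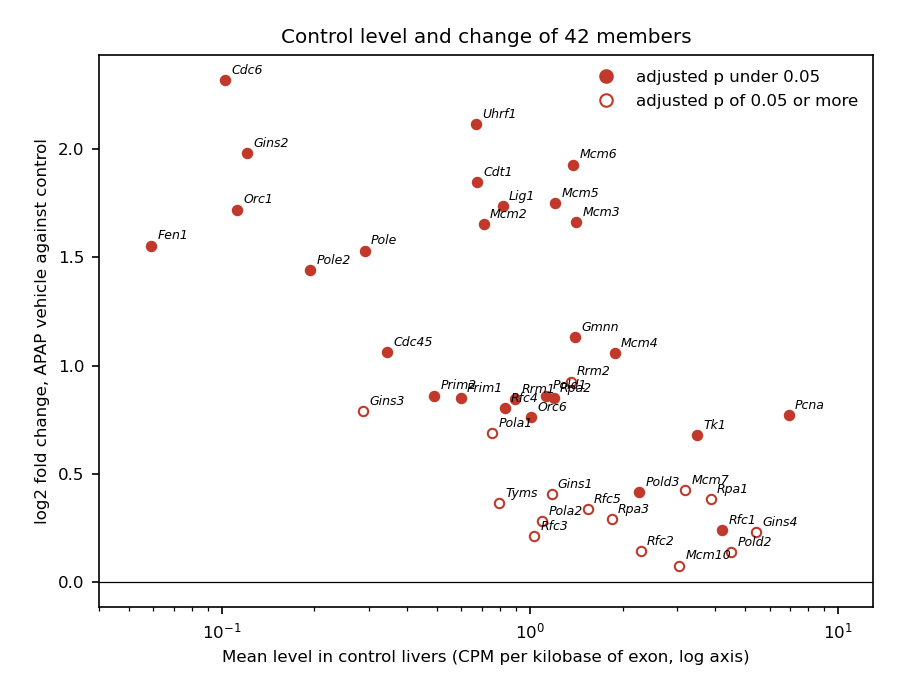
Each point is a member, placed by its mean control level in CPM per kilobase of exon (log axis) and its log2 fold change in vehicle mice, filled where the adjusted p was under 0.05. Cdc6, Gins2 and Orc1 lie at the upper left with low control levels and large changes, and Pold2, Gins4 and Rfc1 at the lower right.

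Further genes of the pathway were read from lists beside the members. Of 31 other replication factors, 15 rose and 1 fell in vehicle mice, and 11 rose and 0 fell in hAAM mice (edgeR), against 15% higher and 14.8% lower, and 10.7% and 9.96%, of all genes tested. Their median log2 fold change was 0.58 and 0.57, below the 1.66 and 1.56 of the licensing members, and 22 and 21 of the 31 were positive. The 4 with the smallest p were Pold4, the small subunit of polymerase delta (log2 fold change 0.81 and 0.78), Chaf1b, a subunit of the chromatin assembly factor that packs new DNA (1.80 and 1.65), Mcm8, a helicase of recombination (0.92 and 0.91), and Rnaseh2b, a subunit of the nuclease that removes ribonucleotides from DNA (0.70 and 0.63). All 4 rose in both groups and kept their calls in all 22 settings. Of the exon bases of Pold4, 24.6% are shared with AC109138.7 on the same strand, so reads of these genes may not have been told apart. Dna2, a nuclease of flap processing, was the factor that fell, by 0.29 on the log2 scale.

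Of 18 other nucleotide supply genes, 6 rose and 4 fell in vehicle mice, and 5 rose and 1 fell in hAAM mice, with medians of 0.16 and 0.18. Over all genes tested 15% rose and 14.8% fell in vehicle mice, and 10.7% and 9.96% in hAAM mice, so the few genes that fell are not a result about this list. Dctd, the deaminase that leads deoxycytidylate toward thymidylate, had 4, 13 and 1 counts in control livers and 20 to 114 in injured livers, with fitted log2 fold changes of 3.31 and 3.28. Ctps, the CTP synthase, rose by 1.38 and 1.02, and Dut, which removes dUTP, by 0.77 and 0.65. Paics, an enzyme of purine synthesis, fell by 0.74 on the log2 scale in vehicle mice, from 164 ± 37.4 CPM (SD, n = 3) to 98.6 ± 12 CPM (SD, n = 5), and was 126 ± 20.8 CPM (SD, n = 4, adjusted p = 0.118) in hAAM mice. Between the treatments Paics did not pass in the main fit or in the 22 alternative settings (adjusted p of 0.518 or more in the alternatives). The other genes that fell in vehicle mice were Shmt1, a serine hydroxymethyltransferase of one-carbon metabolism (-0.56), the mitochondrial thymidine kinase Tk2 (-0.25) and Umps, the last enzyme of pyrimidine synthesis to UMP (-0.26), and Shmt1 also fell in hAAM mice (-0.44). Without control mouse 3 the Ctps call in hAAM mice was lost (adjusted p = 0.0793), as it was without the other controls or hAAM mouse 1 or 2. That call was also lost with the replicate block and with only the compared groups in the fit. Dut lost its hAAM call without control mouse 2 or 3 and with only the compared groups in the fit (up to 0.07). Paics passed in hAAM mice without hAAM mouse 3 (0.0426).

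Among 13 E2F and pocket protein genes, 3 rose and 1 fell in vehicle mice, and 2 rose and 1 fell in hAAM mice. These shares, 23.1% and 15.4% higher, are near the 15% and 10.7% of all genes tested that rose, against 14.8% and 9.96% that fell. E2f8, an atypical family member that represses transcription, measured 23.4, 37.8 and 34.2 CPM in control mice 1 to 3, 4.96, 3.73, 7.71, 5.13 and 10.1 CPM in vehicle mice 1 to 5, and 5.07, 6.04, 5.91 and 7.73 CPM in hAAM mice 1 to 4. All injured livers were below all controls, and the log2 fold change of -2.33 in vehicle (adjusted p = 0.000235) and -2.36 in hAAM mice (adjusted p = 0.000573) was opposite in sign to every member. Of its exon bases, 11.2% are shared with Gm2788. The activators E2f1, E2f2 and E2f3 rose in vehicle mice by 0.98, 1.02 and 0.57, and in hAAM mice E2f1 rose by 0.93 while E2f2 (0.73) and E2f3 (0.39) did not pass. The other gene that rose in hAAM mice was the pocket protein Rbl1 (1.06, against 0.86 in vehicle mice). E2f1 lost its vehicle call without control mouse 1 or 2 and with the replicate block (adjusted p up to 0.0835). E2f2 lost its vehicle call without control mouse 1, 2 or 3 or vehicle mouse 1 or 4, and with the replicate block (up to 0.0887). In hAAM mice E2f1 lost its call in 9 settings, among them those without control mouse 1, 2 or 3 (up to 0.129), and without hAAM mouse 3 both E2f2 and E2f3 passed (down to 0.0385 and 0.00991 over all settings). Of 5 proliferation genes used as a reference, Ccne1, the cyclin of S phase entry, rose in vehicle mice (1.10), and 0 rose in hAAM mice by edgeR, where 4 of the 5, and 35.2% of all genes tested, had an unadjusted p under 0.05. The Ccne1 call was lost without control mouse 2 or 3 or vehicle mouse 1 or 4 (adjusted p up to 0.0877). Ccne2, Ccna2 and Top2a had log2 fold changes of 0.60, 1.01 and 0.94 in vehicle and 0.84, 1.31 and 1.30 in hAAM mice. DESeq2 called all 3 of these higher in hAAM mice. Over the 22 settings Ccne2 passed in hAAM mice in 7 (adjusted p down to 0.00923), Top2a in 4, Ccna2 in 3 and Ccne1 in 2, and without hAAM mouse 3 edgeR called Ccne1, Ccne2 and Top2a.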

How the data were processed

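RNA was extracted from frozen liver, ribosomal RNA was depleted and directional libraries were sequenced as paired ends. The authors trimmed the reads with Cutadapt 4.6, mapped them to GRCm38 with STAR 2.7.1a and assigned reads to genes with summarizeOverlaps. Raw counts per Ensembl gene were deposited, not normalized, for genes with a total of at least 15. The counting mode and the use of strand are not given in the sources used here, so genes with overlapping exons may have exchanged reads.

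Groups came from the sample labels. Members and lists were chosen with earlier results of these data known. Symbols, coordinates and exon lengths were taken from GENCODE vM21 (GRCm38) and promoter sequences from RefSeq GRCm38.p6. Of the genes counted, 95 had no symbol. edgeR 4.0.16 and DESeq2 1.42.0 were run in R 4.3.3. Genes were filtered with filterByExpr by group (minimum count 10), scaled with TMM and fitted together for all 12 livers by edgeR's quasi-likelihood method (limma 3.58.1), with 2-sided p-values and Benjamini-Hochberg adjustment over 22581 genes. The biological coefficient of variation was 0.214. Intervals of 95% came from the fitted standard errors, and log2 CPM carried a prior count of 2. At this depth all members but Fen1 had at least 10 counts in every liver.

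Values in every liver are given for the 2 members with the smallest p in vehicle against control in each role class and for the 3 with the smallest p between the treatments, and at most 4 genes with the smallest p are named in each further list. Genes named beyond this rule were picked with their values known. Each fitting script was first tested on simulated data. Alternatives changed the tool, the scaling, the filter, the livers in the fit, robust estimation and pairing by replicate number, and left out each liver in turn. Histology, serum and cell culture measurements were not used here. A further erythroid marker is not reported here.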

Additional observations from a re-analysis of the deposited data

Results flagged for a closer look

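Within groups of 4 or 5 mice, the distance of the highest or lowest log2 CPM from its nearest neighbour was compared with the group's range by Dixon's criterion. Of 84 groups of values (42 members in each APAP group), 2 held a liver apart from the rest, and chance marks about 1 in 20. Rfc3, a clamp loader subunit, was 2.43 log2 CPM in vehicle mouse 4, against 1.98 to 2.11 in the other vehicle mice. Rfc5, another loader subunit, was 3.42 log2 CPM in hAAM mouse 1, against 3.10 to 3.12 in the other hAAM mice. Both livers were the highest of their group for most members, and neither gene passed the test against control.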

How the results depend on the processing

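No member was called lower than control and none was called between the treatments in any setting tried, with edgeR or DESeq2. Scaling by library size alone raised the median log2 fold change of the members to 1.199 in vehicle mice and the calls in hAAM mice to 38. It also moved the median of all genes to 0.36 and 0.32, and relative to that median the members were higher by 0.84 and 0.87. A fit of only the 2 groups compared gave 15 calls in hAAM mice. Leaving out each liver in turn gave 12 to 31 members higher in vehicle mice and 7 to 31 in hAAM mice, lowest without control mouse 3 and highest without hAAM mouse 3. The causes were not tested. With the replicate number as a replicate block, 22 and 19 members were higher and 0 differed between the treatments, with a median of -0.11. Deviations of same-numbered livers correlated between -0.458 and 0.385 over 10 pairs. Differently numbered pairs were not set beside them, so these values cannot show whether the numbers pair the mice. DESeq2 without both similar libraries, chosen after seeing the data, called 31 and 27 members higher and 0 between the treatments, where it called 88 of all genes. For the genes named, 628 of the alternative values kept their side of the threshold in vehicle mice, 50 no longer passed and 3 passed newly, against 571, 75 and 35 in hAAM mice, and all 681 between the treatments kept theirs. With 3 control mice, and Fen1 and Dctd at few counts, small changes may have been missed.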

Other observations

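Mki67, a marker of cycling cells outside the members and singled out after its values were seen, measured 14.4, 11 and 9.94 CPM in control mice 1 to 3, 28.9, 13.5, 12, 32.3 and 7.94 CPM in vehicle mice 1 to 5, and 46, 25.8, 11.9 and 13.2 CPM in hAAM mice 1 to 4. Its highest values lay in hAAM mouse 1, vehicle mouse 4, vehicle mouse 1 and hAAM mouse 2, the livers with the highest mean over the replication genes. The groups overlapped, and its log2 fold change was 0.69 in vehicle mice (SE 0.514, adjusted p = 0.336, edgeR) and 1.04 in hAAM mice (SE 0.538, adjusted p = 0.187).

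Of the 31 other replication factors, whose median log2 fold change was 0.58 and 0.57, 3 with large values were picked after those were seen. Clspn, an adaptor of the replication checkpoint, had log2 fold changes of 2.11 in vehicle and 2.18 in hAAM mice, Cdc7, the kinase that triggers the loaded helicase, of 1.85 and 1.83, and Chtf18, a subunit of an alternative clamp loader, of 1.64 and 1.84, all called in both groups by edgeR. Dbf4, the partner of Cdc7, had 0.26 and 0.21 and did not pass the test in either.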
